A study of Mus musculus with 17 samples.

Results

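The SOX factors described here are 10 mouse genes, Sox2, Sox4, Sox5, Sox8, Sox9, Sox10, Sox11, Sox12, Sox17 and Sox18, chosen by gene symbol among 16593 genes named on the array. The annotation listed 14 probes for 8 of them, and no probe for Sox10 or Sox11, which were not analysed here. A probe counted as detected on an array where its detection p against the negative control beads was under 0.01. By that measure 12 of the 14 probes, from 7 genes, were detected on at least 1 of 17 arrays. The fourth Sox5 probe and the single Sox18 probe were detected on none.

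Total RNA was hybridised to Illumina BeadArrays in a study of what Oct4 does early in reprogramming. Cells of lines termed TO, for tetracycline Oct4, came from embryonic fibroblasts (MEF), from neural stem cells (NSC) and from bone marrow (BMC), with arrays at 0, 6, 12 and 24 h for each. For MEF and NSC there were also wild-type cells, untreated and treated for 24 h, and embryonic stem cells (ESC), untreated, were read once. The labels mark the TO arrays at 0 h as treated and name neither the inducing compound nor the promoter, strain, age or number of animals. Every condition had 1 array, so a p given here measures the spread between arrays within lines. It does not cover the spread between lines or between cultures. In such bulk samples fewer cells of a type and less RNA per cell cannot be told apart.

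The SOX proteins bind DNA through an HMG box, a domain that sits in the minor groove and bends the helix. They bind short motifs and gain much of their specificity from a partner protein. Oct4, the product of Pou5f1, is a POU factor that pairs with Sox2 on adjoining octamer and SOX motifs in genes of pluripotent cells, and it can pair with Sox17 on a compressed version of that site in endoderm. Subgroups share most of their HMG box. Sox2 is a SoxB1 factor of stem and neural progenitor cells, Sox4, Sox11 and Sox12 are SoxC factors, Sox5 is a SoxD factor without an activation domain, Sox8, Sox9 and Sox10 are SoxE factors of glia, neural crest and cartilage, and Sox17 and Sox18 are SoxF factors of endoderm and endothelium.

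The cell types offered different SOX genes (the map of log2 levels by array). NSC had 6 of the 8 measured genes, namely Sox2, Sox4, Sox5, Sox8, Sox9 and Sox12, on at least 1 of 6 arrays, and all of these but Sox4 on every array. Of the 14 Sox probes 10 were detected on an NSC array and 7 on all 6, against 48.2 and 35.4 percent of the 25697 probes on the array. MEF had Sox4, Sox5, Sox8, Sox9 and Sox12 on at least 1 of 6 arrays, but only Sox5 on every array, which was 5 and 1 of 14 probes, against 49.0 and 36.0 percent. In BMC 0 of 14 probes were detected on any of 4 arrays, against 44.9 percent. ESC had Sox2, Sox12 and Sox17, or 5 of 14 probes, against 42.5 percent. A SOX gene of the B1 subgroup was thus measurable in NSC and ESC, and Sox17, the other textbook Oct4 partner, in ESC alone.

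**Figure D1:**
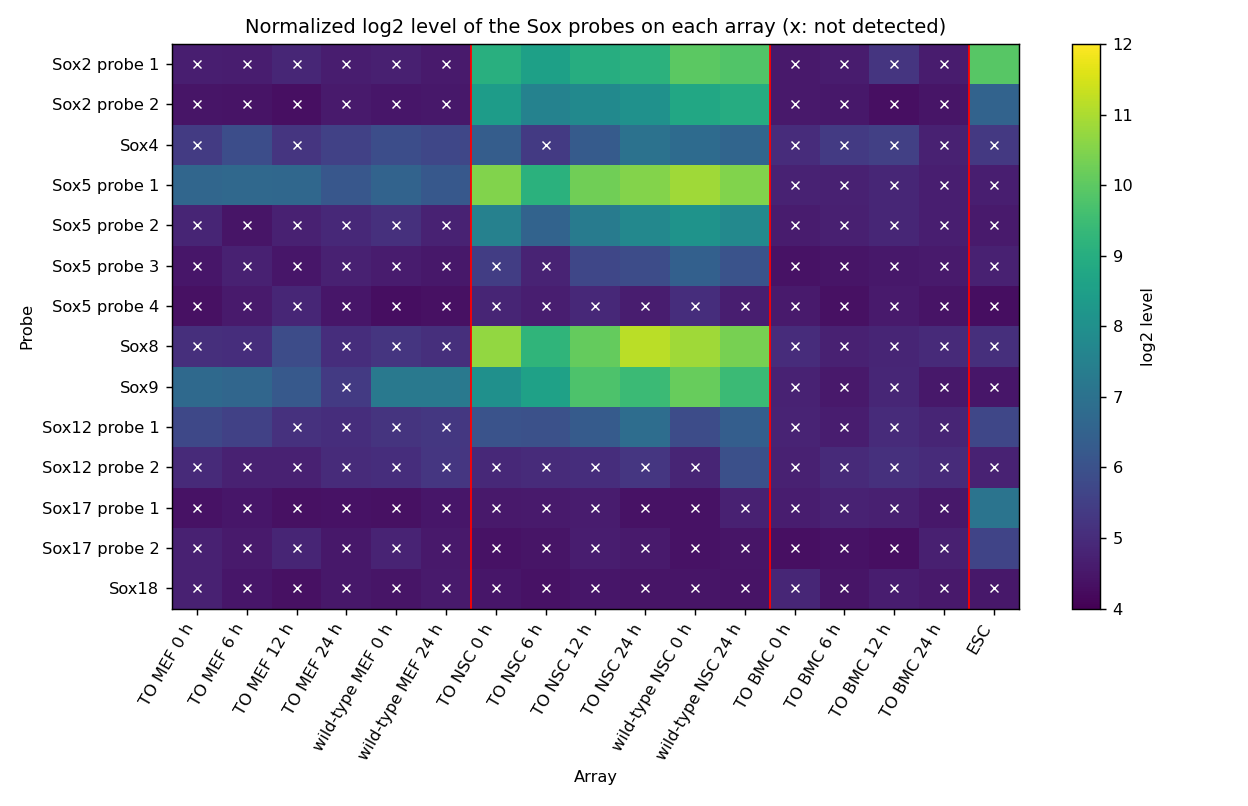
Normalized log2 level of the 14 probes of 8 Sox genes (rows) on 17 arrays (columns), with a cross where the probe was not detected and red lines between cell types. Colours show each probe against itself across arrays, not 1 probe against another. Sox2 probes are bright on the 6 NSC arrays and on ESC, Sox17 on ESC alone, and all 14 rows carry crosses on the 4 BMC arrays.

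Cell identity and scaling were read first. All 8 fibroblast markers were detected on every MEF array, 6 of 7 neural stem markers (all but Pax6) on every NSC array, 6 to 8 of 8 blood markers on BMC arrays, and 7 of 7 pluripotency markers on ESC. Fibroblast markers were also partly seen on BMC arrays, where 5 or 6 of 8 were detected with a summed intensity of 2940 to 3417, against 20450 to 50080 on MEF arrays. Other markers were partly seen off their cell type too. Among them were 1 to 3 of 7 pluripotency markers on NSC arrays and 2 or 3 of 7 neural stem markers on MEF arrays. Mean raw intensity was 382 to 437 on the TO MEF arrays and 548 to 672 on all others, and 39.8 to 43.1 percent of probes were detected per array. Levels below are normalized log2 intensities, and the dimmest detected signal on an array was 5.36 to 5.67. Pou5f1, read at 0, 6, 12 and 24 h, was at 8.41, 14.02, 14.33 and 14.49 in TO MEF, at 5.07, 10.24, 11.20 and 10.22 in TO NSC and at 5.04, 11.09, 11.08 and 10.85 in TO BMC, the NSC and BMC values at 0 h being below detection. Wild-type MEF (5.01 and 4.82) and wild-type NSC (4.98 and 4.59) were below detection, and ESC had 12.94.

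Sox2, the SoxB1 partner of Oct4, was an NSC and ESC gene on these arrays. Its first probe was at 9.04, 8.55, 9.0 and 9.13 in TO NSC at 0, 6, 12 and 24 h, at 9.98 and 9.84 in wild-type NSC at 0 and 24 h, and at 9.91 in ESC. The second probe was at 8.42, 7.54, 7.78 and 8.04 in TO NSC, at 8.80 and 8.95 in wild-type NSC, and at 6.54 in ESC. On both probes the 4 TO NSC arrays lay below the pair of wild-type NSC arrays without overlap. MEF and BMC arrays were all below detection on both probes; the nearest was the first probe in TO BMC at 12 h, with a detection p of 0.0351.

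The probes of Sox2 ordered NSC and ESC differently. The 6 NSC arrays stood at 0.388 to 1.05 times the ESC level on the first probe and at 2.0 to 5.3 times on the second. Raw intensities gave 0.512 to 1.04 and 1.67 to 3.28 times. With 1 ESC array there was no test, and no order of NSC and ESC holds for Sox2 across both probes. At 0 h, estimated from the line intercepts of a limma fit with a linear time trend, NSC exceeded MEF by 4.69 ± 0.18 on the first probe (log2, SE, limma adjusted p = 1.05e-10) and by 3.99 ± 0.17 on the second (limma adjusted p = 3.08e-10). In that fit a wild-type line had no time term, so its intercept averages its 0 h and 24 h arrays. The fold values given here and below for 0 h compare the means of the 0 h arrays themselves, not the fitted intercepts. As MEF was below detection, they are bounds for Sox2, at least 15.4-fold and at least 8.27-fold.

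Oct4 induction was not followed by a detected Sox2 signal in MEF or BMC up to 24 h. In TO NSC neither probe passed the trend test, with a fitted change over 24 h of 0.26 ± 0.33 on the first probe (SE, limma adjusted p = 0.657) and -0.17 ± 0.31 on the second (SE, limma adjusted p = 0.778). Their directions differed.

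The stretches 5′ of Sox2, Sox5 and Sox12 are printed since they were the member promoters in which an octamer or a SOX motif was found. Each line gives the 250 bases before the annotated start, 5′ to 3′ on the gene's strand, from RefSeq on GRCm38.p6, at chr3:34649745-34649994 (plus strand) for Sox2, chr6:143947107-143947356 (minus strand) for Sox5 and chr2:152398047-152398296 (minus strand) for Sox12. Capitals mark the octamer core ATGCAAA and the SOX motifs ACAAAG and ACAATG, which were searched on both strands.
Sox2: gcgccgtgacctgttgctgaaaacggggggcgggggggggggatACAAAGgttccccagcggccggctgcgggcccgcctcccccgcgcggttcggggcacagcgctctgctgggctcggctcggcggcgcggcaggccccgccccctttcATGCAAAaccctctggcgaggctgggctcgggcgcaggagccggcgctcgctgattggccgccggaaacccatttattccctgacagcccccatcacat
Sox5: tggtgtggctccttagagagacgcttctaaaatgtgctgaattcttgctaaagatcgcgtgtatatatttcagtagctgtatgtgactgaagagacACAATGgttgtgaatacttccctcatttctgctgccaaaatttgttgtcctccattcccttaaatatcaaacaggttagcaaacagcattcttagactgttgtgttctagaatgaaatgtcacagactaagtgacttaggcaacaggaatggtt
Sox12: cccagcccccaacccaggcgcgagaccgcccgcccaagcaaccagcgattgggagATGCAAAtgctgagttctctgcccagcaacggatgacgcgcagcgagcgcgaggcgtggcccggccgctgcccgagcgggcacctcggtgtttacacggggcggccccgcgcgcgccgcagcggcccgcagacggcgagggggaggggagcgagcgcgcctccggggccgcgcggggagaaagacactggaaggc
The octamer core lay 99 to 93 bases before the start in Sox2 and 195 to 189 bases before it in Sox12, and 4.12 percent of 32851 promoters of the same length held it. ACAAAG lay 206 to 201 bases before the start of Sox2 (16.5 percent of promoters held it) and ACAATG 154 to 149 bases before that of Sox5 (10.7 percent). No matches overlapped, and no SOX motif adjoined an octamer core. RefSeq's table matched 6 of the 10 genes, and the windows of Sox4, Sox8 and Sox11 held none of the 3 motifs. A match describes letters only.

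The SoxF genes were the sparsest. Sox17, a regulator of endoderm, was detected on the ESC array alone, at a log2 level of 7.08 on one probe and 5.63 on the other. Sox18, a regulator of vessel and lymphatic development, was not detected on any of the 17 arrays. Sox17 probes showed no trend call in the TO lines of the 3 cell types. Its second probe gave a MEF over BMC difference of 0.43 at 0 h (log2, limma adjusted p = 0.0234) although it was below detection on every MEF and BMC array, so no level is read from it. Of 6 endothelial markers on the array, 3 were detected on ESC, 2 or 3 on MEF arrays and 3 or 4 on BMC arrays.

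Sox8, a SoxE factor of the glial and neural crest lineages, was bright in NSC and almost unseen elsewhere. In TO NSC it stood at 10.69, 9.23, 10.12 and 11.17 at 0, 6, 12 and 24 h, with raw intensities of 2134, 892, 1267 and 2448. Wild-type NSC had 10.85 and 10.35, and ESC, with 5.07, was below detection. The 6 h array was lowest of the 6 NSC arrays and the 24 h array highest. In MEF it was detected on 1 of 6 arrays, TO MEF at 12 h, at 5.86. NSC exceeded MEF at 0 h by 5.06 ± 0.33 (log2, SE, limma adjusted p = 2.22e-08), and on the 0 h arrays it was at least 37.0-fold higher.

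Sox5, the SoxD factor that assists Sox9 in cartilage, separated NSC, MEF and BMC in that order. Its first probe was at 10.50, 9.10, 10.26 and 10.52 in TO NSC at 0, 6, 12 and 24 h and at 10.85 and 10.49 in wild-type NSC. In TO MEF it was at 6.63, 6.70, 6.69 and 6.18 and in wild-type MEF at 6.53 and 6.22, while BMC and ESC were below detection. The NSC and MEF ranges did not overlap. NSC exceeded MEF at 0 h by 3.71 ± 0.27 (log2, SE, limma adjusted p = 6.28e-08), and MEF exceeded BMC by 1.77 ± 0.33 (log2, SE, limma adjusted p = 0.000494). On the 0 h arrays these were 17.0-fold and at least 2.14-fold. The MEF over BMC call did not hold without background correction (log2 0.69, limma adjusted p = 0.0509). The second probe was detected on the 6 NSC arrays only, the third on 4 of them (5.70 and 5.86 in TO NSC at 12 and 24 h, 6.47 and 6.05 in wild-type NSC), and the fourth on no array, so the Sox5 signal in MEF rests on 1 probe of 4.

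In TO NSC both genes were lowest at 6 h. Sox8 was 2.74-fold lower at 6 h than at 0 h and Sox5, on its first probe, 2.64-fold lower, with raw ratios of 0.418 and 0.431. By 24 h they stood 1.93 and 1.42 log2 units above their 6 h levels. Sox4 took the same course, with a level below detection at 6 h and at least 1.83-fold under that of 0 h, though its raw ratio was 0.808. By normalized log2 value these were the 3 of 12 probes at least 2-fold lower on that array, where 213 (1.37 percent) of all tested probes were. All 3 were at least 2-fold higher at 24 h than at 6 h, as were 99 of those 213 probes (0.637 percent of tested probes). This course rests on a single array, no test covers it and wild-type NSC were not read at 6 h. Sox5's second probe was 1.98-fold lower at 6 h, and the Sox2 probes 1.41-fold and 1.84-fold lower.

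**Figure D2:**
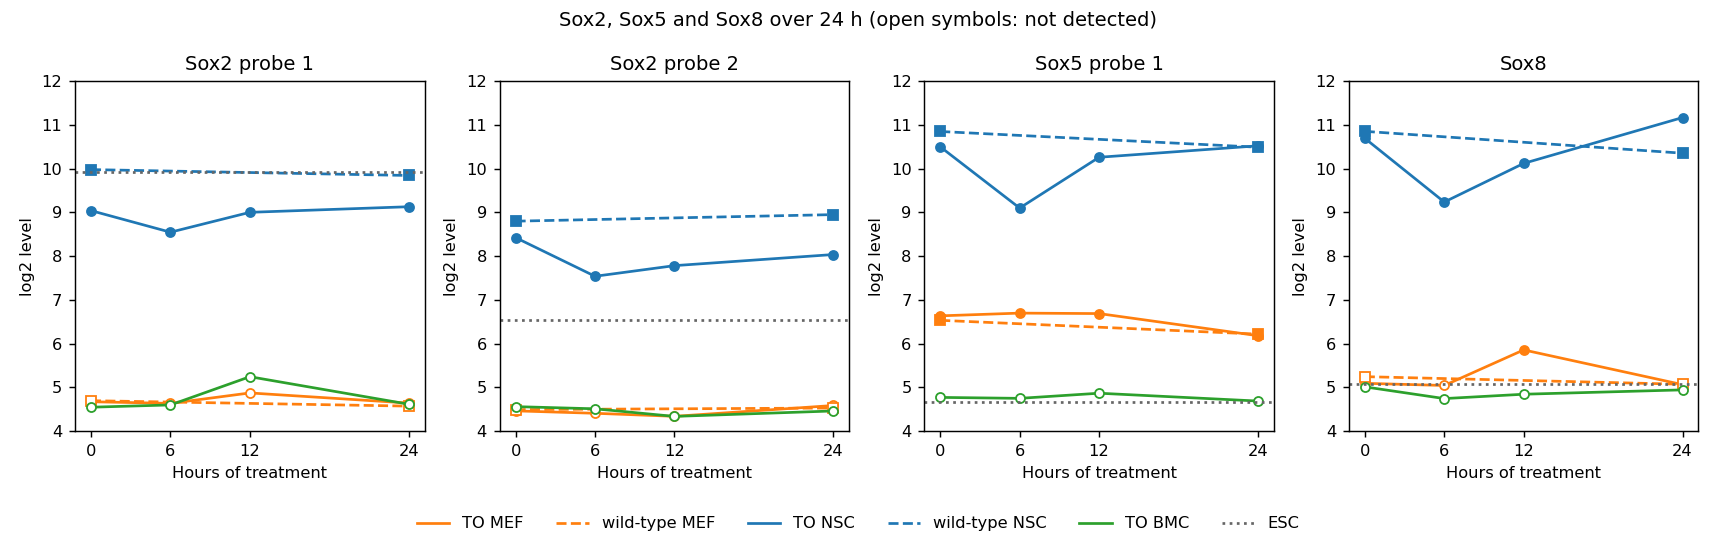
Normalized log2 level (y axis) against hours of treatment (x axis) for both Sox2 probes, Sox5 probe 1 and Sox8, with circles and solid lines for TO lines, squares and dashed lines for wild-type cells, a dotted line for ESC and open symbols where the probe was not detected. Each point is 1 array. The 6 h point of TO NSC is the lowest NSC point in all 4 panels.

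Sox9, the SoxE factor that directs cartilage formation and the glial switch of neural stem cells, moved in opposite directions in TO MEF and TO NSC. In TO MEF it stood at 6.74, 6.63, 6.24 and 5.35 at 0, 6, 12 and 24 h, the last below detection with a detection p of 0.0138, and in wild-type MEF at 7.23 and 7.22. In TO NSC it stood at 8.02, 8.59, 9.75 and 9.44, and in wild-type NSC at 10.13 and 9.46. BMC and ESC were below detection throughout. In MEF the 24 h array was the lowest of the 6. In NSC the TO array at 0 h was the lowest of the 6, and the TO level at 12 h lay between those of wild-type cells, that at 24 h just under them.

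The linear trend called Sox9 lower in MEF and higher in NSC. Over 24 h the fitted change was -1.44 ± 0.42 in MEF (log2, SE, limma adjusted p = 0.0454) and 1.47 ± 0.42 in NSC (log2, SE, limma adjusted p = 0.0245). Sox9 was the single call among 12 probes in MEF, where the trend called 6.11 percent of 15543 tested probes higher and 4.89 percent lower. In NSC it was 1 of 2 calls among 12, both higher, where 11.9 percent of tested probes were called higher and 11.4 percent lower, so the counts of Sox calls lie near these shares. In BMC 0 of 12 were called, against 0.772 percent of all probes, and 0 of 12 had an unadjusted limma p under 0.05. The trends of MEF and NSC differed by -2.91 ± 0.60 (MEF minus NSC, log2, SE, limma adjusted p = 0.00852), 1 of 2 Sox probes called in that contrast, both lower, where 5.14 percent of all probes were lower and 5.85 percent higher. Of the 12 probes Sox9 was also the single one at least 2-fold lower in TO MEF at 24 h (at least 2.42-fold, against 5.56 percent of tested probes) and at least 2-fold higher in TO NSC at 12 h (3.33-fold, against 3.49 percent) and at 24 h (2.68-fold, against 8.23 percent).

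The Sox9 call in MEF was the less stable. It kept its sign but passed the threshold in only 7 of 24 alternatives, and without background correction it was -0.61 (limma adjusted p = 0.278). Leaving out any 1 of the 4 TO MEF, 4 TO BMC or 2 wild-type MEF arrays ended the call, with values of -1.71 to -0.99 (limma adjusted p 0.0574 to 0.732). Raw intensities in TO MEF were 148, 138, 139 and 107, against 290 and 280 in wild-type MEF. In NSC the call did not hold without the TO array at 0 h (0.89, limma adjusted p = 0.281), with the authors' log2 values (1.52, limma adjusted p = 0.0835) or with the wild-type trend subtracted (2.14 ± 0.61, SE, limma adjusted p = 0.0564), and without the 24 h array it was 3.47. Raw intensities in NSC were 405, 610, 1001 and 814 in the TO line, against 1330 and 851 in wild-type cells.

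Where Sox9 rose, some markers of the oligodendrocyte lineage also differed between the lines. Of 6 on the array (Pdgfra, Cspg4, Gpr17, Mag, Mog and Mbp), 1 to 3 were detected in TO NSC with a summed intensity of 768.7 to 932.3, and 3 in wild-type NSC with 3961 to 4099. Mag, Mog and Mbp were below detection on every NSC array. At 0 h Pdgfra stood at 5.64 in TO NSC and 10.62 in wild-type NSC, and Cspg4 at 5.84 and 5.74. Olig1 and Olig2, outside that list, differed less than Pdgfra at 0 h. Olig1 stood at 12.10 in TO NSC and 11.86 in wild-type NSC, and Olig2 at 8.16 and 8.95. Over time in TO NSC the trend called 2 of the 5 tested higher, Gpr17, a receptor of oligodendrocyte precursors (1.46 ± 0.26, log2, SE, limma adjusted p = 0.00204), and Cspg4, and the list median was 0.97, beside 0.01 over all tested probes. Of all tested probes 11.9 percent were called higher in NSC. Gpr17 stood at 5.24, 5.01, 5.62 and 6.54 in TO NSC at 0, 6, 12 and 24 h, against 10.51 and 10.88 in wild-type NSC, and was detected on 3 arrays. After subtraction of the wild-type trend, none was called (0 of 5, with Gpr17 at 1.09, limma adjusted p = 0.108). Astrocyte markers summed to 12260 to 16910 in TO NSC and to 15200 to 20110 in wild-type NSC, with 2 and 3 of 4 detected. Their mean normalized log2 level was 7.64 to 8.12 in TO NSC and 9.28 to 9.72 in wild-type NSC. At 0 h Aldoc, the brightest, stood at 13.31 in TO NSC and 13.33 in wild-type NSC, and Aqp4 at 8.79 and 11.62. Gfap stood at 4.75, below detection, and 7.65, and S100b was below detection on every NSC array. In MEF, 1 or 2 of 7 chondrocyte markers were detected in TO cells (summed intensity 670.6 to 769.3) and 1 in wild-type cells (926.7 to 990.2), and summed fibroblast markers were 20450 to 28900 in TO MEF, against 48560 to 50080 in wild-type MEF. These sums are raw, and raw intensity was lower on all TO MEF arrays. The mean normalized log2 level of the chondrocyte markers was 4.81 to 5.12 in TO MEF and 4.96 to 5.05 in wild-type MEF. That of the fibroblast markers was 10.59 to 11.04 and 11.26 to 11.37. The part of these markers in the Sox9 changes was not tested.

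At 0 h Sox9 also ordered the cell types. NSC exceeded MEF by 2.0 ± 0.23 (log2, SE, limma adjusted p = 6.91e-06), and MEF exceeded BMC by 2.30 ± 0.29 (log2, SE, limma adjusted p = 1.59e-05). On the 0 h arrays these were 4.26-fold and at least 2.82-fold. The third member of the SoxE subgroup, Sox10, had no listed probe.

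The SoxC genes were dim. Sox12, a weak activator that overlaps in function with Sox4 and Sox11, was detected by its first probe in TO NSC at 6.05, 5.99, 6.30 and 6.86 at 0, 6, 12 and 24 h, in wild-type NSC at 5.85 and 6.40, and in ESC at 5.69. In TO MEF it stood at 5.75, 5.56, 5.14 and 5.03, below detection at 12 and 24 h, and wild-type MEF, at 5.20 and 5.29, were below detection. The TO NSC array at 24 h was the highest of all 17. The second probe was detected once, in wild-type NSC at 24 h, at 5.95.

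The trend of Sox12's first probe was 0.88 ± 0.27 in NSC (log2, SE, limma adjusted p = 0.0314), while that in MEF, -0.74 ± 0.27, did not pass (SE, limma adjusted p = 0.101). Their difference, MEF minus NSC, was -1.62 ± 0.38 (SE, limma adjusted p = 0.0162). Wild-type NSC also had a higher level at 24 h than at 0 h, by 1.47-fold, and with that trend subtracted the NSC value was 0.33 (limma adjusted p = 0.652). Without the TO NSC array at 24 h it was 0.50 (limma adjusted p = 0.739), and the call was also lost without the 6 h array (0.81, limma adjusted p = 0.0613) and with the authors' values (1.10, limma adjusted p = 0.0992).

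Sox4, a SoxC factor of progenitor cells and immature neurons, was near the detection limit outside NSC. It stood at 6.35, 5.35, 6.30 and 7.02 in TO NSC at 0, 6, 12 and 24 h, below detection at 6 h, and at 6.79 and 6.60 in wild-type NSC. In TO MEF it was detected at 6 and 24 h (5.90 and 5.56) and in wild-type MEF on both arrays (5.89 and 5.71), and the lowest NSC array lay within the MEF range. The NSC trend of 1.02 ± 0.48 did not pass (log2, SE, limma adjusted p = 0.156), nor did the NSC over MEF difference at 0 h of 0.59 ± 0.27 (log2, SE, limma adjusted p = 0.0743). NSC exceeded BMC by 0.95 ± 0.33 (log2, SE, limma adjusted p = 0.0241), which was 0.50 without the TO BMC array at 0 h (limma adjusted p = 0.404).

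**Figure D3:**
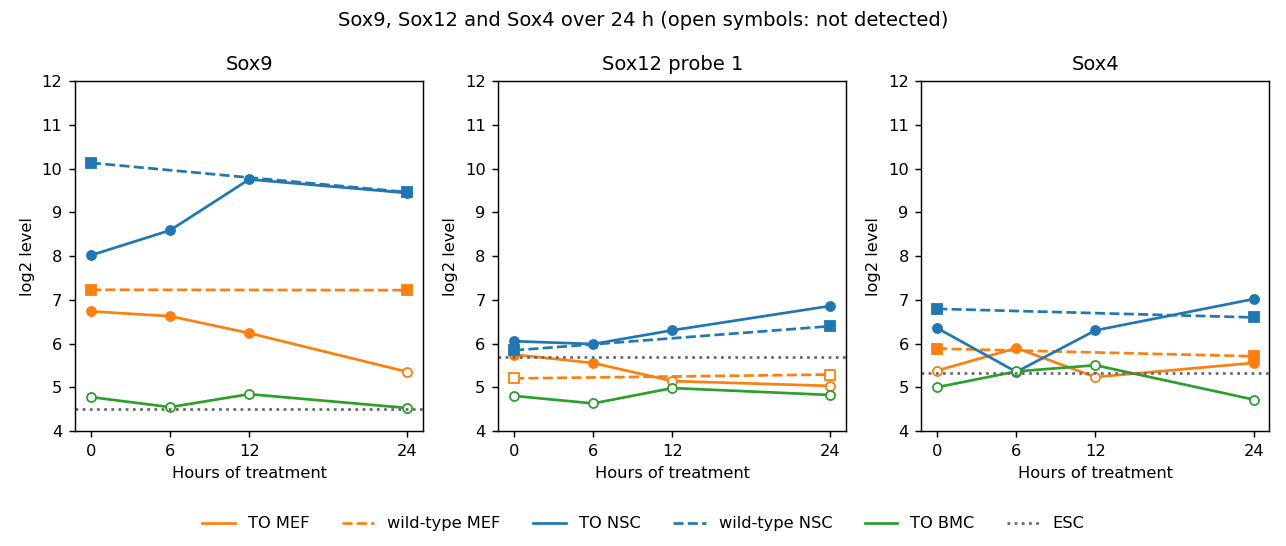
Normalized log2 level (y axis) against hours of treatment (x axis) for Sox9, Sox12 probe 1 and Sox4, with circles and solid lines for TO lines, squares and dashed lines for wild-type cells, a dotted line for ESC and open symbols where the probe was not detected. Each point is 1 array. Sox9 ends at 5.35 in TO MEF and at 9.44 in TO NSC, beside the wild-type NSC level of 9.46.

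Across the 3 pairs of cell types at 0 h, 8 of the 12 tested Sox probes were higher in NSC than in MEF and 0 lower, where 31.1 percent of all tested probes were higher and 25.4 percent lower. In NSC over BMC 9 were higher and 0 lower, against 35.1 and 28.3 percent of all tested probes. In MEF over BMC 4 were higher and 0 lower, against 30.2 and 26.2 percent. Those 4 include Sox17's second probe, which was below detection on every MEF and BMC array. These counts are descriptions, since 10 of the 12 probes were detected on an NSC array and several entered the test through NSC alone. On the 0 h arrays, with BMC below detection, Sox2's first probe was at least 16.2-fold higher in NSC, with bounds of 36.4-fold for Sox5's first probe, 39.0-fold for Sox8 and 12.0-fold for Sox9.

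The step test, which set the 3 later times of a line jointly against its 0 h array, called 0 of 12 Sox probes in MEF, NSC and BMC, where it called 0.193, 0.206 and 0.0322 percent of all probes. At an unadjusted p under 0.05 it had 0, 2 and 0 Sox probes, and in NSC these were Sox9 (1.24 ± 0.49, log2, SE, limma adjusted p = 0.536) and Sox2's second probe (-0.64 ± 0.21, log2, SE, limma adjusted p = 0.456). Trend differences of MEF minus BMC and of NSC minus BMC each called 0 of 12, against 3.44 and 10.7 percent of all probes, and each had 1 Sox probe with an unadjusted limma p under 0.05, Sox12's first probe and Sox9. With the wild-type trend subtracted the MEF and NSC trends each called 0 of 12, against 1.14 and 8.37 percent, and each had 2 Sox probes with an unadjusted limma p under 0.05.

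**Figure D4:**
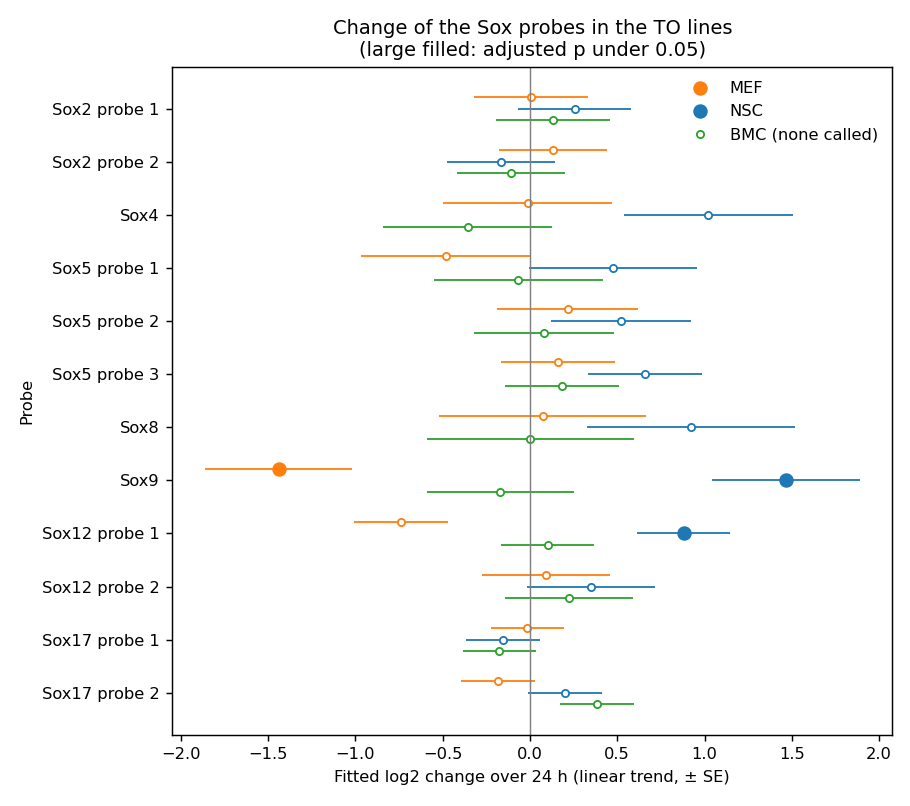
Fitted log2 change over 24 h by the linear trend (x axis, points, with bars of ± 1 SE) of the 12 tested Sox probes (rows) in the TO lines of MEF, NSC and BMC, large filled points having an adjusted p under 0.05. Sox9 stands at -1.44 in MEF and 1.47 in NSC and Sox12 probe 1 at 0.88 in NSC, the only filled points.

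Among 10 other family members, 9 had a probe, of which ESC detected 4 (Sox7, Sox13, Sox15, Sox21), NSC 3 (Sox3, Sox13, Sox21) and MEF 1 (Sox21, on 1 array). Sox21, a SoxB2 factor that opposes SoxB1 activity, was at 12.19, 12.76, 12.63 and 13.25 in TO NSC at 0, 6, 12 and 24 h, at 13.49 and 13.23 in wild-type NSC and at 8.35 in ESC, which the NSC arrays exceeded 14.3-fold to 35-fold. Its trend in TO NSC was 0.95 ± 0.25 (log2, SE, limma adjusted p = 0.017), and the 3 later TO arrays lay between the TO array at 0 h and the higher wild-type array. Sox3, a SoxB1 factor like Sox2, was detected on all 6 NSC arrays, at 5.62, 5.53, 6.12 and 6.00 in the TO line and 6.42 and 6.60 in wild-type cells. Sox13, a SoxD factor, fell in TO NSC by 1.26 ± 0.37 (log2, SE, limma adjusted p = 0.0285). Neither call held once the wild-type trend was subtracted, with 1.21 for Sox21 (limma adjusted p = 0.0792) and -1.59 for Sox13 (limma adjusted p = 0.111). Sox7 and Sox15 were detected in ESC alone, and BMC again had 0 of 15 probes.

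Genes known for paired Oct4 and Sox2 sites were mostly below detection in the somatic cells. The 10 listed, among them Fgf4, Utf1 and Nanog, were all detected in ESC, while 1 was detected on any MEF array (Lefty1), 2 on any NSC array (Zfp42 and Esrrb) and 0 in BMC. Apart from Lefty1, Zfp42 and Esrrb, they entered the test through ESC alone. Over all tested probes the trend called 6.11 percent higher and 4.89 percent lower in MEF and 11.9 and 11.4 percent in NSC. In BMC it called 0.772 percent in either direction. The trend called 0 of these 10 higher and 0 lower in MEF and in BMC, and in NSC 0 higher and 2 lower, Zfp42 (-0.93, log2, limma adjusted p = 0.0193) and Esrrb (-1.16, log2, limma adjusted p = 0.035). Neither call held with the wild-type trend subtracted (limma adjusted p = 0.0919 for Zfp42 and 0.0655 for Esrrb). At 0 h Zfp42 stood at 5.83 in TO NSC and 5.69 in wild-type NSC, and Esrrb at 7.14 and 4.88, the latter below detection. For the others the count of 0 says only that no signal rose out of the background far enough to be called.

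Targets of the other subgroups changed in part, beside shares over all tested probes of 6.11 percent higher and 4.89 percent lower in MEF, 11.9 and 11.4 percent in NSC and 0.772 percent in either direction in BMC. Of 10 tested genes listed for SoxE in glia and neural crest, 3 were higher in NSC and 0 lower: Cnp, a myelin enzyme (3.66 ± 0.49, log2, SE, limma adjusted p = 0.000275), Mia, a secreted cartilage protein (2.99 ± 0.36, log2, SE, limma adjusted p = 0.000162), and Cspg4, a proteoglycan of glial precursors (1.12 ± 0.37, log2, SE, limma adjusted p = 0.0441). In MEF Cspg4 was lower (-2.09 ± 0.37, log2, SE, limma adjusted p = 0.00338) and Mbp higher. Of 3 tested cartilage genes Col2a1, a direct Sox9 target, was lower in MEF (-0.90 ± 0.27, log2, SE, limma adjusted p = 0.0463) and Col9a2 higher in NSC (2.37 ± 0.55, log2, SE, limma adjusted p = 0.00876). In TO NSC Mia stood at 4.86, 4.85, 5.59 and 7.69 at 0, 6, 12 and 24 h, and Col9a2 at 5.24, 5.11, 4.96 and 7.53. Each was above detection there at 24 h only, so both calls rest on that single array. Of 7 neural progenitor genes listed for SoxB1, MEF had 3 lower (Nes, Hes1, Notch1) and NSC 1 higher (Hes5) and 1 lower (Fabp7). At 0 and 24 h Hes5 stood at 10.42 and 12.31 in TO NSC and at 12.23 and 12.74 in wild-type NSC. Fabp7 stood at 9.71 and 8.16 in TO NSC and at 10.05 and 11.18 in wild-type NSC. With the wild-type trend subtracted, Cnp, Mia and Fabp7 in NSC were still called, and Cspg4, Mbp, Col2a1, Col9a2, Nes, Hes1, Notch1 and Hes5 were not (Col2a1 -0.82, limma adjusted p = 0.422, and Col9a2 2.98, limma adjusted p = 0.053). Gfap of the SoxE list was then called lower in NSC (-1.40 ± 0.30, log2, SE, limma adjusted p = 0.0206). That value is no fall in TO NSC, where Gfap was below detection at all times (4.73 to 4.96). Wild-type NSC went from 7.65 at 0 h to 9.21 at 24 h.

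Of 7 genes listed for SoxC, 3 were higher in MEF (Stmn2, Gap43, Nrcam), led by Gap43, a protein of growing axons, at 4.37 ± 0.50 (log2, SE, limma adjusted p = 0.000268), while in NSC Nrcam was higher and Gap43 lower. At 0 and 24 h in TO MEF Stmn2 stood at 5.63 and 7.57, Gap43 at 6.47 and 10.97 and Nrcam at 4.62 and 6.33. Wild-type MEF had 9.22 and 9.31 for Stmn2, 8.86 and 9.05 for Gap43 and 5.47 and 5.69 for Nrcam. With the wild-type trend subtracted, Gap43 was still called in MEF and NSC, and Stmn2 and Nrcam were not. Of 6 SoxF genes 1 was higher and 1 lower in MEF (Nos3 and Vcam1), 1 higher in NSC (Prox1) and 1 lower in BMC (Esam), and with that subtraction Nos3 and Prox1 were still called and Vcam1 was not. Of 7 Oct4 partners from other families, among them Klf4 and Sall4, Esrrb in NSC was the single call. Of the SoxE, SoxB1 and SoxC genes tested, 4 of 10, 4 of 7 and 7 of 7 were detected in MEF and 7 of 10, 7 of 7 and 5 of 7 in NSC. The medians of the SoxE, SoxB1 and SoxC lists were -0.03, -1.57 and 1.25 in MEF and 0.56, 0.40 and 0.38 in NSC, beside -0.01 in MEF and 0.01 in NSC over all tested probes.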

How the data were processed

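The deposited intensities are linear and were not normalized, each with a detection p-value against negative control beads, per the file headers. The authors' series matrix holds log2 values, and BeadStudio 3.2, RMA and lumi were used per the submitters' processing notes, with no settings. Array intensities were corrected with limma 3.58.1 in R 4.3.3 (normexp, negative controls inferred from detection p-values, offset 16) and quantile normalized over 17 arrays. The 15543 of 25697 probes that any array detected (p under 0.01) were tested. One limma fit over the 16 somatic arrays held 5 line intercepts and, per cell type, a step term or a linear trend (8 residual degrees of freedom; 6 with the wild-type trend subtracted). The fitted 0 h levels averaged TO and wild-type intercepts in MEF and NSC, while BMC had a TO intercept alone. In the trend fit a wild-type line had no time term, so its intercept was the mean of its 0 h and 24 h arrays. P-values were adjusted by Benjamini-Hochberg over 15543 probes, with 0.05 as threshold. Where the dimmer side was below detection, its level was set to the lowest detected log2 signal of that array, or its own if higher, and the fold is a lower bound. The number of arrays limits the precision. Nothing in the labels says that arrays came from separate cultures. Members and lists were chosen with earlier results of these data known. Genes named were the members, Pou5f1, list members that were called or detected, and for each member the 3 genes most alike. The fits were tested on simulated data. Symbols came from the platform annotation, which named 1 gene for 23978 probes and none for 1719. The build is not given in the sources used here.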

Additional observations from a re-analysis of the deposited data

Results flagged for a closer look

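The Sox9 trend differed between TO MEF and TO NSC by -2.91 ± 0.60 (MEF minus NSC, log2 over 24 h, SE, limma adjusted p = 0.00852), with 4 arrays in each line. The difference was called in 22 of 23 alternatives, and without the TO MEF array at 24 h it was -2.46 (limma adjusted p = 0.201). Without the TO NSC array at 24 h it was -4.91. The first Sox12 probe differed in the same direction by -1.62 ± 0.38 (SE, limma adjusted p = 0.0162). That call held in 20 of 23 alternatives, and not without the TO MEF array at 0 h (limma adjusted p = 0.0826), the TO MEF array at 24 h (limma adjusted p = 0.0846) or the TO NSC array at 24 h (-1.24, limma adjusted p = 0.341). The second Sox12 probe was below detection in both TO lines and gives no check. Neither set of 23 alternatives held subtraction of the wild-type trend, which was run for each cell type alone. There Sox9 was called in neither MEF (-1.43, limma adjusted p = 0.326) nor NSC (2.14, limma adjusted p = 0.0564). The first Sox12 probe was called in neither MEF (-0.83, limma adjusted p = 0.330) nor NSC (0.33, limma adjusted p = 0.652).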

How the results depend on the processing

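Across 26 called Sox results and their alternatives, 560 of 601 values kept direction and threshold, 41 kept direction but lost the threshold, and 0 reversed. The trend in MEF, with 1 Sox call, had 0 without background correction, with an offset of 50, with the authors' log2 values, with median scaling, without the filter on dim probes, without the wild-type arrays and after subtraction of the wild-type trend. The 2 trend calls in NSC became 0 with the authors' values and with that subtraction. Leaving out each array in turn gave 0 to 1 trend calls in MEF, 1 to 6 in NSC and 0 to 0 in BMC, and 0 to 0 step calls in each cell type, where the step of a line without its 0 h array could not be estimated. Trend differences gave 0 to 5 calls for MEF minus NSC, 0 to 0 for MEF minus BMC and 0 to 3 for NSC minus BMC, and 0 h levels 8 to 10 for NSC minus MEF, 8 to 9 for NSC minus BMC and 3 to 4 for MEF minus BMC. The 6 NSC calls came without the TO NSC array at 0 h, when Sox8 stood at 2.51 (limma adjusted p = 0.0039) and Sox4 at 2.11 (limma adjusted p = 0.0102). The cause was not tested. No paired analysis was possible because each condition has 1 array. Signals under the lowest detected level cannot be ordered, which covers all Sox probes in BMC.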

Other observations

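The genes whose log2 levels followed each SOX gene most closely were taken by Pearson's r over the 17 arrays, which share cell types and times, so r mainly describes differences between cell types. Sox2's first probe was followed by Gldc (r = 0.991), Susd4 (0.988) and Olig1 (0.976), the last a factor of the oligodendrocyte lineage. Sox8 was followed by Syn2 (0.997), Ntrk2 (0.995), a neurotrophin receptor, and Bcan (0.995), a brain proteoglycan. Sox5 was followed by Dner (0.988), Gprin1 (0.987) and Gpt2 (0.986). Sox9 was followed by Eci2 (0.966), Tmem100 (0.965) and Shisa4 (0.964). For Sox4 and Sox12, which spanned about 2.30 and 2.23 log2 units, r was lower: Sox4 was followed by Mterf2 (0.922), Zfp94 (0.919) and Plpp3 (0.917), and Sox12 by Mfn1 (0.953), Mycl (0.937) and Mlf2 (0.934). Sox17 and Sox18 were detected on too few arrays for this measure.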
